A study of Mus musculus with 8 samples.

Results

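Constant light was compared with a light/dark cycle in mouse liver, over both of the airs that the mice breathed. All 8 libraries of the series entered, chosen by their titles: 4 from constant light, which were 2 in filtered air (LL-FA) and 2 in fine particulate matter (LL-PM2.5), and 4 from the light/dark cycle, which were 2 in filtered air (LD-FA) and 2 in PM2.5 (LD-PM2.5). All were livers of wild type C57BL/6 mice after 30 weeks of exposure. Nothing in the labels says that both libraries of a group came from different animals, so p-values may measure technical spread alone. The sources used here give no sex, no age and no hour of collection. The values are FPKM (fragments corrected for the length of the transcript and the depth of the library) for levels, and edgeR log2 fold changes of the fragment counts, constant light over light/dark, with air kept in the model. Of 48432 genes listed, 11316 reached 1 FPKM in 2 libraries or more and were tested, and ATAC-seq was not analysed here.

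Light acts on the liver indirectly, through the brain's clock, nerves, hormones and the hours of feeding, and each hepatocyte also runs a clock in which CLOCK and BMAL1 switch on their own repressors. The acute phase response is the hepatocyte's answer to the cytokines IL-6 and IL-1, which act through STAT3, NF-kB and C/EBP factors and load the blood with serum amyloid A, haptoglobin and orosomucoids. Heat shock proteins refold damaged proteins and are switched on by heat shock factor, while retinoic acid and fatty acids act through the nuclear receptors RAR and PPARa.

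Most members of 3 gene lists read lower in constant light: transcripts of the acute phase, of inducible chaperones and of inflammatory cytokines. All lists were chosen with earlier results of these data known, so shares of their members are descriptions and no tests. On the higher side stood the retinoic acid hydroxylase Cyp26a1, the taurine enzyme Csad, the glutathione enzyme Mgst3 and the fatty acid hydroxylase Cyp4a14. No gene passed the edgeR quasi-likelihood test after Benjamini-Hochberg adjustment, 0 of 11316 (0%), and the smallest adjusted p was 0.150. Without adjustment 641 genes had p under 0.05 (5.66%), of which 247 were higher in constant light (2.18%) and 394 lower (3.48%). DESeq2, the second tool, called 92 genes (0.813%), 15 higher (0.133%) and 77 lower (0.68%). Each edgeR value below is therefore one that did not pass. All 4 constant light libraries lay above all 4 light/dark libraries in 77 genes (0.68%) and below them in 177 (1.56%).

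Total fragments per library ran from 22214720 to 31819109. Transcripts of other tissues set some libraries apart. The 11 pancreas acinar markers summed to 17.9 to 368 FPKM in constant light, highest in LL-PM2.5 replicate 2, and to 27.6 to 3802 FPKM in light/dark, highest in LD-FA replicate 1. The 10 skeletal muscle markers summed to 0.76 to 670.4 FPKM in constant light, highest in LL-FA replicate 1, and to 0.58 to 333 FPKM in light/dark, highest in LD-FA replicate 1. The 9 hepatocyte markers in the table summed to 37234 to 46930 FPKM in constant light and 36877 to 45568 FPKM in light/dark. LD-FA replicate 1 also carries high acute phase values. Values without it and without LL-PM2.5 replicate 2 are therefore given for some lists and genes. Fold changes of some genes were smaller in that fit, and those of others were larger. In bulk liver, fewer cells of a type and less RNA per cell cannot be told apart.

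The serum amyloid A genes Saa1 and Saa2 had the largest fold changes of the acute phase list. Saa1 and Saa2 encode neighbouring, near-identical apolipoproteins that hepatocytes release into blood in inflammation. Saa1 (chr7:46740497-46742980, GRCm38/mm10) read 39.9 and 43.7 FPKM in LL-FA, with 30.9 and 68.5 in LL-PM2.5, against 2851 and 1281 in LD-FA, with 2134 and 303 in LD-PM2.5. The groups did not overlap, and LD-PM2.5 replicate 2 was the lowest of the light/dark libraries. The Saa1 log2 fold change was -5.10 ± 0.67 (SE, edgeR adjusted p = 0.150), with -5.62 in filtered air and -4.59 in PM2.5. Saa2 (chr7:46751790-46754313) had 20.3, 16.6, 9.66 and 34.8 FPKM in the 4 constant light libraries and 1414, 586, 1531 and 162 FPKM in the 4 light/dark libraries. Its log2 fold change was -5.50 ± 0.83 (SE, edgeR adjusted p = 0.188). Because reads may be split between such copies, their sum is the safer value. Saa1 and Saa2 together averaged 66.1 ± 26.5 FPKM in constant light and 2566 ± 1732 FPKM in light/dark (SD, n = 4 each). Without LD-FA replicate 1 and LL-PM2.5 replicate 2 the fold changes were -5.15 for Saa1 and -5.71 for Saa2.

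The promoters of these genes, from RefSeq on GRCm38.p6, are shown because both genes differ in the same direction and share a motif. Each sequence runs from 250 bases before the start of transcription to 50 after it, on the gene's own strand. Capitals mark matches to TTNNGCAA or its reverse complement, letters bound by C/EBP factors. Orm2 is given beside them as a member from another locus.
Saa1, chr7:46742931-46743230, minus strand: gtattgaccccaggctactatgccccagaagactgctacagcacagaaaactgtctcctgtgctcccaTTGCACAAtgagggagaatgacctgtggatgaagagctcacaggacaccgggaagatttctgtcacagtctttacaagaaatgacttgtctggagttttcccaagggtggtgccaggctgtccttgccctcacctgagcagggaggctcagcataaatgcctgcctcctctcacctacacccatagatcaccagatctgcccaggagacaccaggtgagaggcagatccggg
Saa2, chr7:46751583-46751882, plus strand: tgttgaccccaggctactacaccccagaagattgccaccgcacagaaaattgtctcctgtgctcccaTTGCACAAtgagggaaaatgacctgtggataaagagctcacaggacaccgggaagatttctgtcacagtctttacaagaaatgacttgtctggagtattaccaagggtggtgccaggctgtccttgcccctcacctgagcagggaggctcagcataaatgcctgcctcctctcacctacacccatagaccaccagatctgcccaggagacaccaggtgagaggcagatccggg
Orm2, chr4:63362199-63362498, plus strand: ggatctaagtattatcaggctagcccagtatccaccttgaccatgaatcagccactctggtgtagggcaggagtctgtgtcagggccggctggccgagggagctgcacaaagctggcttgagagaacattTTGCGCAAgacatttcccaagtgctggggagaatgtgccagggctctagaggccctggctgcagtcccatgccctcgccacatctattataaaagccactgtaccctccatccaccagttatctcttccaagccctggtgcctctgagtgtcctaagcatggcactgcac
The match lay 182 bases before the start in Saa1, 183 in Saa2 and 120 in Orm2. Among acute phase genes tested, 12 of 22 with a promoter window held it (54.5%), against 8.69% of the 8296 windows of tested genes. An NF-kB motif, GGGNN followed by TTTCC on either strand, was in 2 of the 22 (9.09%), against 1.58% of all tested windows. A match of letters is a description of these windows and shows no binding.

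Orosomucoids are plasma proteins that bind lipids and drugs. Orm2 (chr4:63362449-63365878) read 13.5 and 13.0 FPKM in LL-FA, with 8.42 and 9.89 in LL-PM2.5, against 102 and 41.0 in LD-FA, with 67.7 and 32.1 in LD-PM2.5. All constant light libraries were below all light/dark libraries, and the log2 fold change of -2.44 ± 0.32 (SE, edgeR adjusted p = 0.150) was nearly equal in both airs, -2.43 and -2.44. Orm3 stood at -2.0 ± 0.30. The abundant Orm1, whose groups overlapped, stood at -0.76 ± 0.17, and the 3 orosomucoids together averaged 849 ± 85.7 FPKM in constant light and 1490.2 ± 527 FPKM in light/dark (SD, n = 4 each). Lcn2, which withholds iron from bacteria by binding their siderophores, read 3.10, 1.63, 1.53 and 3.84 FPKM in constant light and 57.0, 30.6, 58.3 and 9.53 FPKM in light/dark. Its log2 fold change was -3.91 ± 0.63 (SE, edgeR adjusted p = 0.211), and its groups did not overlap. Orm2 stood at -2.15, Orm3 at -1.84, Orm1 at -0.61 and Lcn2 at -4.07 without LD-FA replicate 1 and LL-PM2.5 replicate 2.

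Haptoglobin, Hp, which binds free hemoglobin, averaged 1648 ± 281 FPKM in constant light and 3248 ± 418 FPKM in light/dark (SD, n = 4 each), a log2 fold change of -0.95 ± 0.16. The leucine-rich glycoprotein Lrg1 stood at -1.11 ± 0.17, the protease inhibitor Serpina3n at -0.97 ± 0.17 and the plasma protein Itih4 at -0.69 ± 0.14, each with groups that did not overlap. Hp stood at -0.86, Lrg1 at -0.90, Serpina3n at -0.73 and Itih4 at -0.59 without LD-FA replicate 1 and LL-PM2.5 replicate 2. Of 29 acute phase genes listed, 27 were in the table and 26 were tested. An unadjusted p under 0.05 on the lower side was reached by 18 of the 26 (69.2%, against 3.48% of all genes tested), and on the higher side by 0 (0%, against 2.18%). In 11 of the 26 all constant light libraries lay below all light/dark libraries, where 1.56% of all genes did. DESeq2 called 10 of the 26 lower, against 0.68% of all genes. The median log2 fold change of the list was -0.63, against 0.0047 for all genes tested, with -0.74 in filtered air and -0.61 in PM2.5. Leaving out LD-FA replicate 1 and LL-PM2.5 replicate 2 made it -0.55, and it was -0.42 with 1 library left in each group. Hamp, the iron hormone hepcidin and also an IL-6 target, stood at 0.59 ± 0.45 with overlapping groups, at 0.23 once LD-PM2.5 replicate 1 was left out and at 1.43 once LD-PM2.5 replicate 2 was. Stat3 itself averaged 16.0 ± 0.675 FPKM in constant light and 22.4 ± 2.21 FPKM in light/dark (SD, n = 4 each), a log2 fold change of -0.45 ± 0.08.

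**Figure D1:**
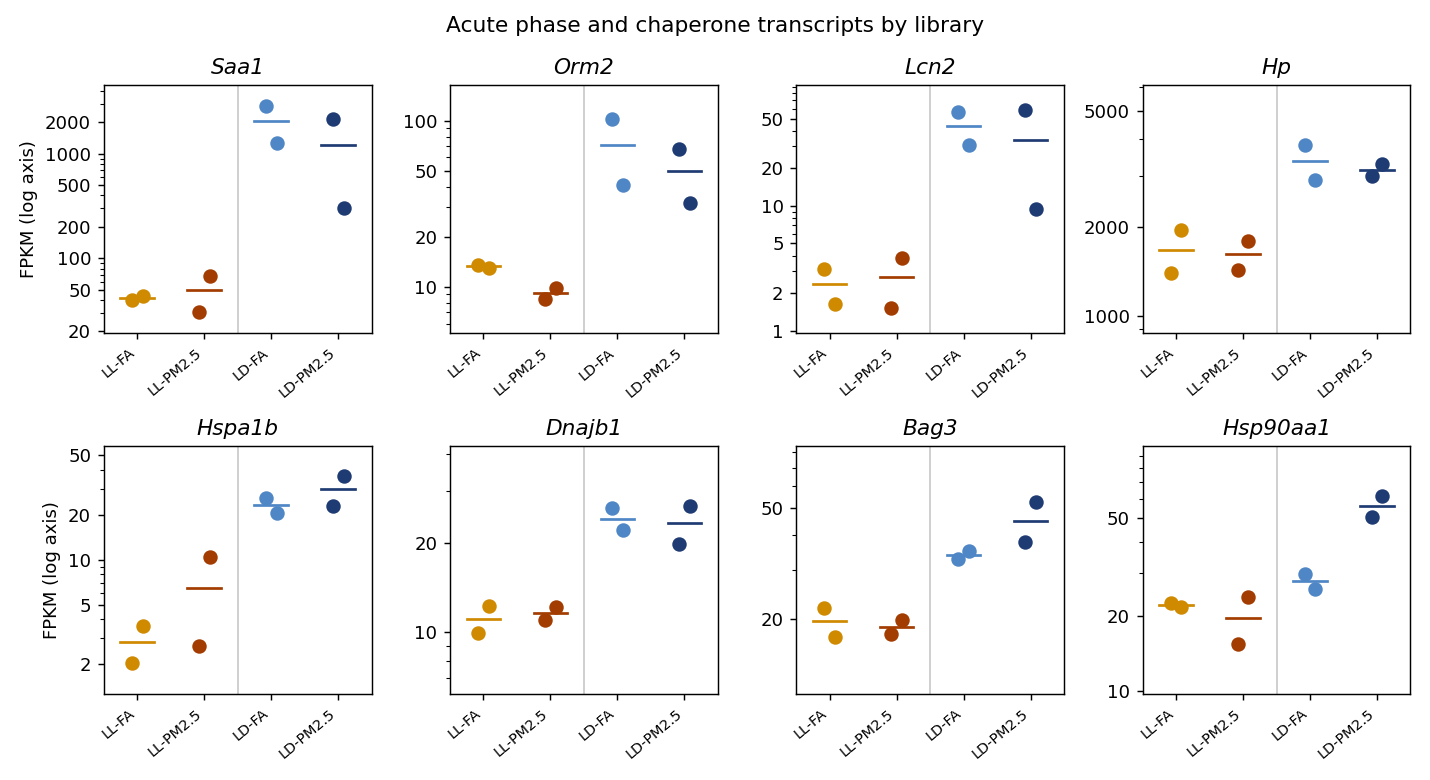
FPKM on log axes of acute phase and chaperone transcripts in each library, grouped as LL-FA, LL-PM2.5, LD-FA and LD-PM2.5, with a bar at each group mean (n = 2). Saa1 lies between 30.9 and 68.5 FPKM in the 4 constant light libraries and between 303 and 2851 FPKM in the 4 light/dark libraries.

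Inducible chaperones were the second group. Hspa1a and Hspa1b are the stress-induced HSP70 genes, which lie side by side on chromosome 17 and encode nearly the same protein. Hspa1b (chr17:34956436-34959238) read 2.02 and 3.57 FPKM in LL-FA, with 2.64 and 10.4 in LL-PM2.5, against 25.8 and 20.5 in LD-FA, with 23.0 and 36.3 in LD-PM2.5. All constant light libraries lay below all light/dark libraries, with LL-PM2.5 replicate 2 the nearest to them. Its log2 fold change was -2.60 ± 0.36 (SE, edgeR adjusted p = 0.169), and -2.96 without LD-FA replicate 1 and LL-PM2.5 replicate 2. Hspa1a (chr17:34969190-34972156) stood at -2.91 ± 0.33 with 0.240 ± 0.0798 FPKM in constant light and 2.01 ± 0.970 FPKM in light/dark (SD, n = 4 each). The sum of both averaged 4.89 ± 3.93 FPKM in constant light and 28.4 ± 7.07 FPKM in light/dark (SD, n = 4 each).

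Their promoter windows are shown because the 2 genes differ at only 4 of 300 bases there (98.7% identity), and the fragments of such copies may be split. Capitals mark a match to GAANNTTC, a core of the heat shock element, which is its own reverse complement and lies 104 bases before the start in both (RefSeq, GRCm38.p6).
Hspa1a, chr17:34972107-34972406, minus strand: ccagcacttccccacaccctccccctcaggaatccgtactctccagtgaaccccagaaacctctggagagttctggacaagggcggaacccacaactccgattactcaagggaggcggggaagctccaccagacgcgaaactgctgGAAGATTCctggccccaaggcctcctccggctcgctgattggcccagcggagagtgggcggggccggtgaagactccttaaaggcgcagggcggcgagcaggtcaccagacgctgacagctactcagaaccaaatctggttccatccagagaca
Hspa1b, chr17:34959189-34959488, minus strand: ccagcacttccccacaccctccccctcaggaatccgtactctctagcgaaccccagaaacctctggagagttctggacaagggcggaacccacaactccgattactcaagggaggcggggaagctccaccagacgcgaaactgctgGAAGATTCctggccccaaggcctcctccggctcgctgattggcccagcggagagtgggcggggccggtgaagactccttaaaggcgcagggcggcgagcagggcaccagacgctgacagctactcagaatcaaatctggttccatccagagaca
Among heat shock genes tested, 8 of 13 with a window held this match (61.5%), against 5.65% of the windows of all tested genes.

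Co-chaperones went with them. Dnajb1, which hands unfolded clients to HSP70, read 9.92, 12.3, 10.99 and 12.2 FPKM in constant light and 26.2, 22.1, 19.9 and 26.7 FPKM in light/dark. The spread within each light regime was small next to the gap, and the log2 fold change was -1.04 ± 0.13 (SE, edgeR adjusted p = 0.150). Bag3, which links HSP70 to autophagy, averaged 19.1 ± 2.22 FPKM in constant light and 39.4 ± 8.94 FPKM in light/dark (SD, n = 4 each), at -0.98 ± 0.15. Hsph1, an HSP70 nucleotide exchange factor, stood at -1.30 ± 0.31 and the HSP90 gene Hsp90aa1 at -0.90 ± 0.24. All 16 heat shock genes listed were tested, and 11 had an unadjusted p under 0.05 on the lower side (68.8%, against 3.48% of all genes), with 0 on the higher side. In 6 of the 16 all constant light libraries lay below all light/dark libraries, where 1.56% of all genes did. DESeq2 called 7 of the 16 lower, against 0.68% of all genes. The median log2 fold change was -0.75, with -0.29 in filtered air and -1.02 in PM2.5. Leaving out LD-PM2.5 replicate 2 made it -0.47, and leaving out LD-FA replicate 1 and LL-PM2.5 replicate 2 made it -1.02. The mitochondrial chaperonins Hspd1 and Hspe1 stood at -0.09 and -0.08. The small heat shock protein Hspb1 read 10.7, 30.7, 8.17 and 17.3 FPKM in constant light and 18.4, 16.3, 23.1 and 119 FPKM in light/dark, and its log2 fold change of -1.08 ± 0.48 was -0.35 without LD-PM2.5 replicate 2.

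Cytokines, chemokines and NF-kB targets formed the third group on the lower side. The cytokine Il1b (chr2:129364570-129371139) read 0.868, 0.634, 1.70 and 1.11 FPKM in constant light and 4.36, 2.36, 2.32 and 2.39 FPKM in light/dark, which did not overlap. Its log2 fold change was -1.46 ± 0.22 (SE, edgeR adjusted p = 0.188), -2.15 in filtered air and -0.77 in PM2.5. The adhesion molecule Icam1 stood at -1.22 ± 0.22 and the monocyte attractant Ccl2 at -2.14 ± 0.42, also without overlap. Il1b stood at -1.16, Icam1 at -1.32 and Ccl2 at -2.77 without LD-FA replicate 1 and LL-PM2.5 replicate 2. The neutrophil attractant Cxcl1 read 3.66, 1.94, 3.08 and 10.6 FPKM in constant light and 10.6, 10.05, 64.1 and 109 FPKM in light/dark. LL-PM2.5 replicate 2 lay just above both LD-FA libraries, so the light regimes overlapped. The Cxcl1 log2 fold change was -2.74 ± 0.46 (SE, edgeR adjusted p = 0.231), and -3.46 without LD-FA replicate 1 and LL-PM2.5 replicate 2. Of 15 genes listed, 12 were tested, of which 10 had an unadjusted p under 0.05 on the lower side (83.3%, against 3.48% of all genes) and 0 on the higher. DESeq2 called 5 of the 12 lower, against 0.68% of all genes. The median was -1.10, with -0.71 in filtered air, -1.14 in PM2.5, and -1.16 without LD-FA replicate 1 and LL-PM2.5 replicate 2.

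The feedback inhibitor Socs3, induced by STAT3, was also lower averaged over air, but its sign differed between the airs. It read 0.817 and 6.16 FPKM in LL-FA, with 1.45 and 1.21 in LL-PM2.5, against 2.56 and 1.48 in LD-FA, with 10.4 and 23.9 in LD-PM2.5. Its log2 fold change was 0.78 in filtered air and -3.66 in PM2.5, a difference of -4.44 ± 1.12 (SE, interaction, edgeR adjusted p = 0.843).

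Neighbouring programmes leaned the same way with smaller shares. Immediate early genes, which are switched on first after a stimulus, had 6 of 14 tested members at an unadjusted p under 0.05 on the lower side (42.9%, against 3.48% of all genes). Fosl2 stood at -0.89 ± 0.14, Atf3 at -1.33 ± 0.34 and Fos at -2.0 ± 0.61. Fos read 0.486, 0.315, 0.227 and 0.786 FPKM in constant light and 4.19, 0.810, 0.954 and 1.88 FPKM in light/dark. The Fos value was -1.18 without LD-FA replicate 1. The list's median of -0.39 was -0.083 when LD-FA replicate 1 was left out and -0.77 when LL-PM2.5 replicate 2 was. Of 21 tested interferon response genes 20 were negative, with 4 under 0.05 on the lower side (19%, against 3.48%) and a median of -0.24, which was -0.11 without LD-PM2.5 replicate 1. Genes of the unfolded protein and integrated stress responses were negative in 16 of 19, with 3 under 0.05 on the lower side (15.8%, against 3.48%) and a median of -0.41. Leaving out LL-PM2.5 replicate 2 made it -0.66, and leaving out LD-PM2.5 replicate 1 made it -0.25. Outside these lists, the joint lubricant and plasma protein Prg4 (chr1:150449412-150466165), the gene of smallest p in the comparison, read 6.56, 4.94, 7.49 and 6.31 FPKM in constant light and 17.1, 11.5, 15.9 and 10.9 FPKM in light/dark. The Prg4 groups did not overlap, and the log2 fold change was -1.12 ± 0.13 (SE, edgeR adjusted p = 0.150). Nfkbiz, an inducible NF-kB cofactor, stood at -1.11 ± 0.14 and the interferon-induced Parp14 at -0.61 ± 0.09.

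Markers of the cells that make or answer such signals are given beside these lists. The 13 Kupffer cell and macrophage markers summed to 270.5 to 404 FPKM in constant light and 348 to 448 FPKM in light/dark, with 0 of 13 under 0.05 and a median of -0.17, -0.31 without LL-FA replicate 2 and -0.076 without LL-PM2.5 replicate 1. The 10 neutrophil markers summed to 3.88 to 5.94 FPKM in constant light and 4.14 to 14.1 FPKM in light/dark. The 2 that were tested, the calcium-binding S100a8 and S100a9, were both under 0.05 on the lower side (100%, against 3.48% of all genes), with a median of -0.82, and -0.47 without LD-PM2.5 replicate 2. Their defining marker Ly6g was listed at 0 in 7 libraries and at 0.0400 FPKM in LD-FA replicate 1. Of B and plasma cell markers, the antibody chain Ighm read 5.72, 8.03, 8.11 and 8.52 FPKM in constant light and 21.6, 17.3, 11.6 and 8.58 FPKM in light/dark. Its log2 fold change was -0.87 ± 0.14, with -1.48 in filtered air and -0.25 in PM2.5. Its nearest values were 8.52 FPKM in LL-PM2.5 and 8.58 FPKM in LD-PM2.5. Of the 4 B and plasma cell markers tested, 2 were under 0.05 on the lower side (50%, against 3.48% of all genes) and 1 was positive. The median of the 4 was -0.73, with -1.37 in filtered air and -0.049 in PM2.5. The summed level of that list was 22.9 to 39.4 FPKM in constant light and 34.1 to 93.6 FPKM in light/dark. The part of these cells in the lower cytokine and acute phase values was not tested.

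**Figure D2:**
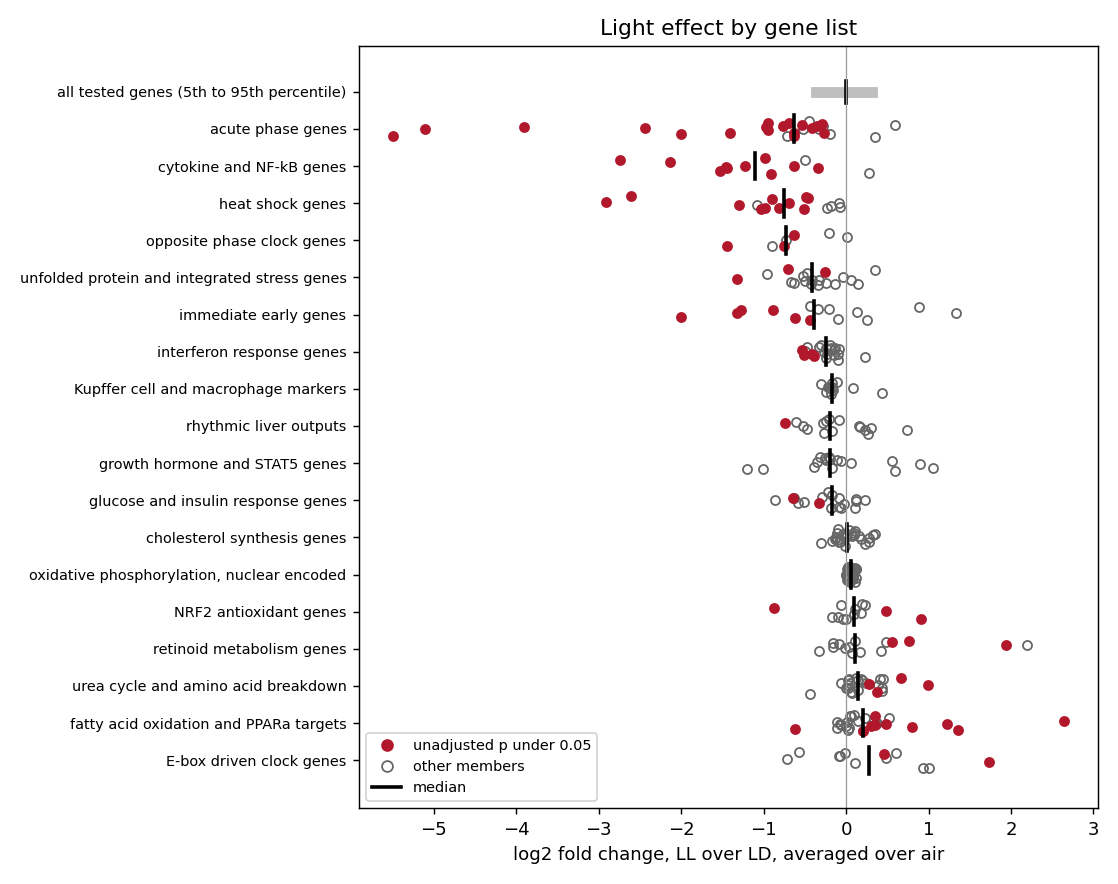
Log2 fold changes of constant light over light/dark for the tested members of the gene lists (points), red where the unadjusted p was under 0.05, with a bar at each list's median and, in the top row, the 5th to 95th percentile of all tested genes. The medians of acute phase genes, cytokine and NF-kB genes and heat shock genes stand at -0.63, -1.10 and -0.75, against 0.0047 for all tested genes.

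On the higher side Cyp26a1 had the smallest p. Its enzyme clears retinoic acid by hydroxylation, and the gene is itself a target of the retinoic acid receptor. Cyp26a1 (chr19:37697798-37701536) read 36.6 and 36.4 FPKM in LL-FA, with 39.998 and 20.6 in LL-PM2.5, against 7.53 and 9.08 in LD-FA, with 7.05 and 11.6 in LD-PM2.5. The groups did not overlap, and the log2 fold change was 1.94 ± 0.23 (SE, edgeR adjusted p = 0.150), 2.14 in filtered air and 1.74 in PM2.5. It was 2.06 without LD-FA replicate 1 and LL-PM2.5 replicate 2, and DESeq2 called it at an adjusted p of 2.22e-16. Its promoter window is shown for the direct repeat that carries the retinoic acid response. Capitals mark 2 copies of AGTTCA separated by NNNNN, read here on the opposite strand, 32 bases before the start (RefSeq, GRCm38.p6).
Cyp26a1, chr19:37697558-37697857, plus strand: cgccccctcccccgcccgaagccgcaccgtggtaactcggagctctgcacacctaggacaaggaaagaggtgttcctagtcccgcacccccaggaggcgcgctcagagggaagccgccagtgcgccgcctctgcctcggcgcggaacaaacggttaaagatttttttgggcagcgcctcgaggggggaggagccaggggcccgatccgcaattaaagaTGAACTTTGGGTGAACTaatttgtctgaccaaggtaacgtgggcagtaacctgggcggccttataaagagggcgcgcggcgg
Of 8296 windows of tested genes this window alone held the match (0.0121%), and 7 of all 27025 windows held it. The motif searched is spelled as the repeat in this window, and other spellings were not searched. The match was therefore given in advance, and the shares are a description alone.

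Cyp26b1, a second retinoic acid hydroxylase, read 5.39, 7.78, 5.65 and 0.112 FPKM in constant light and 0.901, 0.294, 2.54 and 0.596 FPKM in light/dark. LL-PM2.5 replicate 2 was the lowest of all 8 libraries, and the log2 fold change was 2.20 ± 0.95, and -0.11 without LL-PM2.5 replicate 1. Lrat, which stores retinol as its ester, read 5.53, 4.50, 5.88 and 2.47 FPKM in constant light and 2.71, 2.26, 3.66 and 2.03 FPKM in light/dark. LL-PM2.5 replicate 2 lay within the light/dark range, and the log2 fold change was 0.77 ± 0.21. The retinoic acid receptor Rarb stood at 0.56 ± 0.15. Of 17 retinoid metabolism genes listed, 15 were tested, with 3 under 0.05 on the higher side (20%, against 2.18% of all genes) and 0 on the lower. Their median was 0.11, but leaving out LL-PM2.5 replicate 1 made it 0.042 and leaving out LD-PM2.5 replicate 1 made it 0.24.

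Csad, the decarboxylase of taurine synthesis, read 214 and 293 FPKM in LL-FA, with 197 and 159.7 in LL-PM2.5, against 149 and 126 in LD-FA, with 136 and 135 in LD-PM2.5. The groups did not overlap, and the log2 fold change was 0.67 ± 0.12 (SE, edgeR adjusted p = 0.267), 0.93 in filtered air and 0.41 in PM2.5. Mgst3, a microsomal glutathione transferase, averaged 14.8 ± 1.03 FPKM in constant light and 9.997 ± 0.851 FPKM in light/dark (SD, n = 4 each), at 0.62 ± 0.11 without overlap. Sds, which deaminates serine, stood at 1.0 ± 0.28 with overlapping groups. Csad stood at 0.78, Mgst3 at 0.64 and Sds at 0.72 without LD-FA replicate 1 and LL-PM2.5 replicate 2. Of 25 tested genes of the urea cycle and amino acid breakdown, 22 were positive (51.3% of all genes were) and 4 were under 0.05 on the higher side (16%, against 2.18%). Their median was 0.15, with -0.018 in filtered air and 0.31 in PM2.5. Leaving out LL-PM2.5 replicate 1 made it 0.23, and leaving out LL-PM2.5 replicate 2 made it 0.090. Kyat1, a kynurenine aminotransferase, stood at 0.38 ± 0.09 and Gas2, a cytoskeletal growth-arrest protein, at 0.52 ± 0.13.

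PPARa, the fatty acid sensor of hepatocytes, drives the Cyp4a hydroxylases of fatty acids. Cyp4a14 (chr4:115486200-115496142) read 162 and 118 FPKM in LL-FA, with 218 and 82.6 in LL-PM2.5, against 3.49 and 33.8 in LD-FA, with 32.1 and 19.9 in LD-PM2.5. All constant light libraries lay above all light/dark libraries, but the light/dark values spread widely and the log2 fold change was 2.64 ± 0.66 (SE, edgeR adjusted p = 0.563). Cyp4a10 stood at 1.35 ± 0.46 with overlap. The 4 measured relatives Cyp4a10, Cyp4a14, Cyp4a31 and Cyp4a32, whose reads may be shared, together averaged 271 ± 106 FPKM in constant light and 71.9 ± 37.8 FPKM in light/dark (SD, n = 4 each). The acyl-CoA thioesterase Acot3 stood at 1.22 ± 0.31, while the PPARa target Angptl4, an inhibitor of lipoprotein lipase, stood at -0.62 ± 0.22. Cyp4a14 stood at 2.44, Cyp4a10 at 1.26, Acot3 at 1.12 and Angptl4 at -0.28 without LD-FA replicate 1 and LL-PM2.5 replicate 2. Of 28 fatty acid oxidation genes and PPARa targets tested, 9 were under 0.05 on the higher side (32.1%, against 2.18% of all genes) and 1 on the lower (3.57%, against 3.48%). Their median was 0.21, with 0.36 in filtered air, 0.072 in PM2.5 and 0.11 without replicate 1 of LD-FA and of LL-FA. The rate-setting carnitine transferase Cpt1a stood at 0.04.

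**Figure D3:**
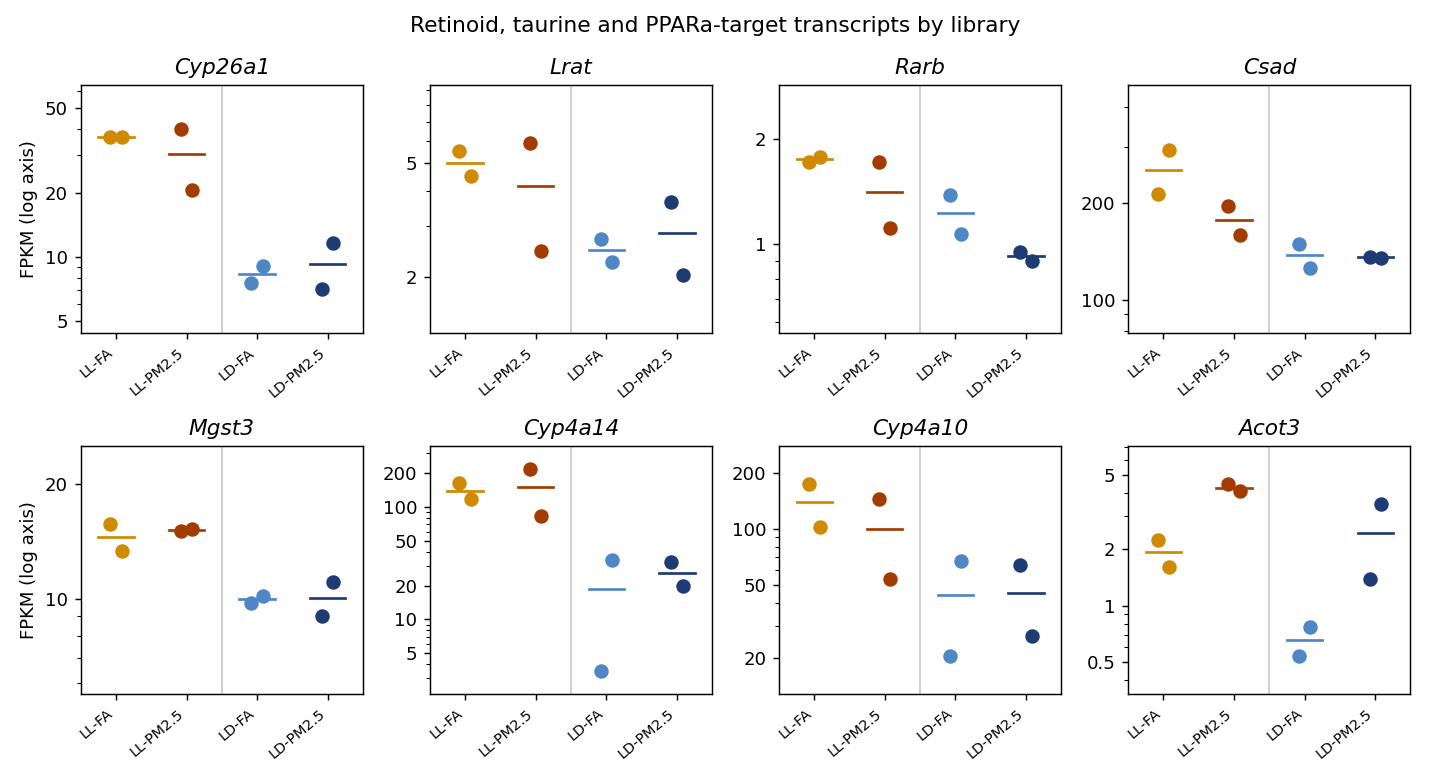
FPKM on log axes of transcripts of retinoid, taurine, glutathione and PPARa-linked metabolism in each library, grouped as LL-FA, LL-PM2.5, LD-FA and LD-PM2.5, with a bar at each group mean (n = 2). Cyp26a1 lies between 20.6 and 39.998 FPKM in constant light and between 7.05 and 11.6 FPKM in light/dark, while Lrat, Rarb, Cyp4a10 and Acot3 overlap.

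Clock genes differed from one another in direction and size. Dbp, a factor that CLOCK and BMAL1 drive through E-boxes, read 3.86 and 9.08 FPKM in LL-FA, with 32.9 and 54.0 in LL-PM2.5, against 2.77 and 2.05 in LD-FA, with 9.12 and 13.0 in LD-PM2.5. It was higher in constant light within each air, 1.43 in filtered air and 2.03 in PM2.5, but both LL-FA libraries lay below both LD-PM2.5 libraries. The log2 fold change was 1.73 ± 0.27 (SE, edgeR adjusted p = 0.190). The repressor Nr1d2 stood at 0.46 ± 0.12. Among 12 tested E-box driven genes, 2 were under 0.05 on the higher side (16.7%, against 2.18% of all genes) and 7 were positive. Their median was 0.28, with 0.35 in filtered air, 0.0099 in PM2.5 and 0.47 without LD-PM2.5 replicate 2. Their partners that peak in the opposite phase had a median of -0.73, with -0.13 in filtered air, -1.21 in PM2.5 and -0.27 without LD-PM2.5 replicate 2. Of the 7 tested, 3 were under 0.05 on the lower side (42.9%, against 3.48%).

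Arntl, which encodes BMAL1 (chr7:113207465-113314126), read 6.10 and 4.88 FPKM in LL-FA, with 2.09 and 2.04 in LL-PM2.5, against 6.75 and 6.35 in LD-FA, with 4.40 and 3.995 in LD-PM2.5. Constant light was lower within each air, but both LL-FA libraries lay above both LD-PM2.5 libraries, so the light regimes overlapped. The log2 fold change was -0.63 ± 0.10 (SE, edgeR adjusted p = 0.211). Nfil3, a repressor that opposes Dbp, read 12.04, 12.6, 10.97 and 9.34 FPKM in constant light and 13.7, 16.8, 20.9 and 26.7 FPKM in light/dark, without overlap. Its log2 fold change was -0.75 ± 0.12 (SE, edgeR adjusted p = 0.211), -0.29 in filtered air and -1.21 in PM2.5. Per1 and Nr1d1 stood at -0.09 and -0.07, with errors of 0.38 and 0.56. LD-PM2.5 replicate 2 read 5.99 FPKM for Per1 where the other light/dark libraries had at most 1.70, and 5.55 FPKM for Nr1d1 where they had at least 20.1. Npas2, the BMAL1 partner that can replace CLOCK, stood at -1.44 ± 0.61, and at 0.056 without LD-PM2.5 replicate 1. With no hour of collection given, a shift of phase and a change of level cannot be told apart.

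**Figure D4:**
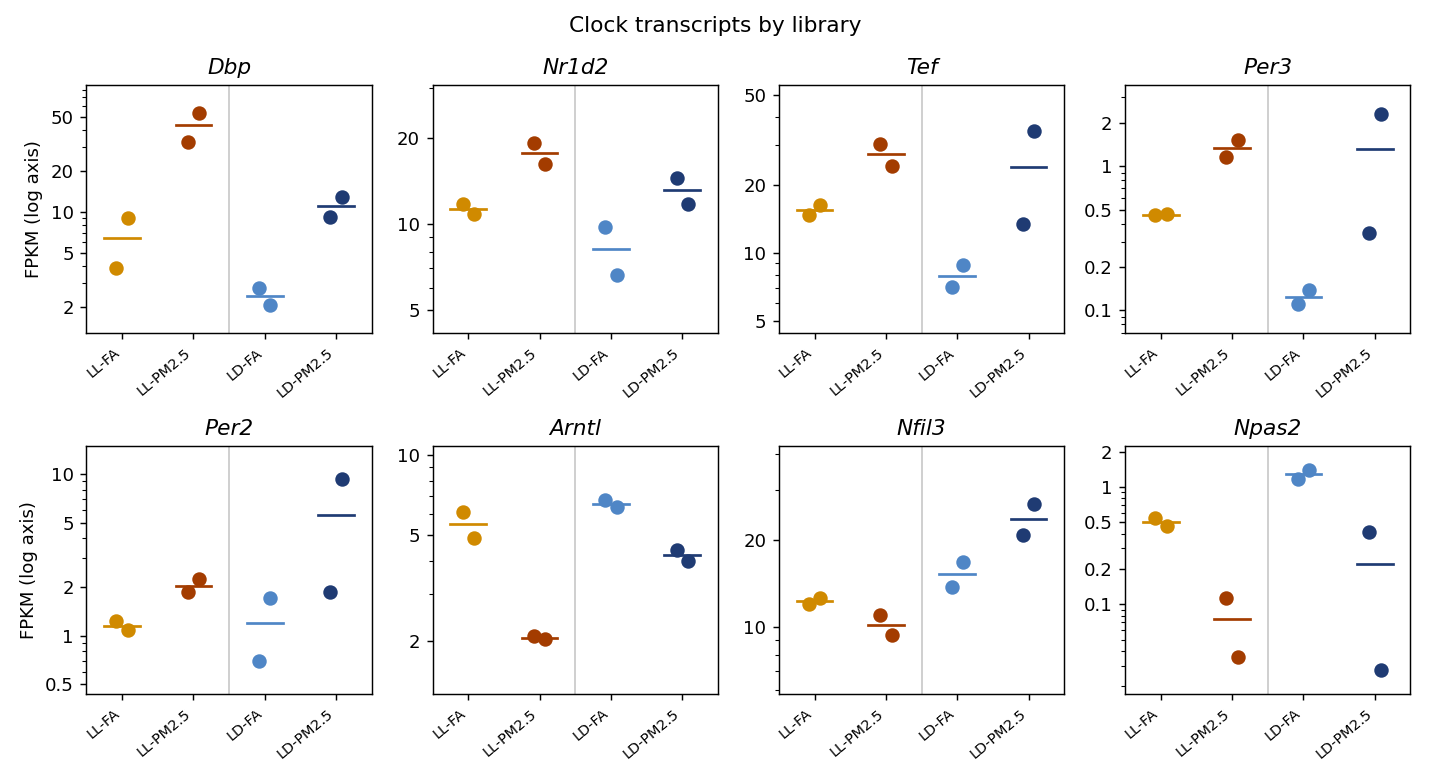
FPKM on log axes of core clock transcripts in each library, grouped as LL-FA, LL-PM2.5, LD-FA and LD-PM2.5, with a bar at each group mean (n = 2). Dbp is higher in constant light within each air, 3.86 and 9.08 against 2.77 and 2.05 FPKM in filtered air and 32.9 and 54.0 against 9.12 and 13.0 FPKM in PM2.5.

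The light effect was also taken in filtered air and in PM2.5 alone, which share no library. Both come from the same fit and share its estimate of each gene's spread, so a gene's p-values in the airs are not independent. The sign was the same in 5307 of 11316 genes (46.9%), and across genes, which are no replicates of one another, the log2 fold changes had a Pearson r of -0.083 and a Spearman rho of -0.053. An unadjusted p under 0.05 was reached by 1044 genes in PM2.5 (9.23%), 401 higher (3.54%) and 643 lower (5.68%), and by 310 in filtered air (2.74%), 135 higher (1.19%) and 175 lower (1.55%). A same sign with p under 0.05 in both airs was found in 59 of the 11316 genes, 13 higher and 46 lower. Of those 46, 18 were acute phase, heat shock or cytokine genes (39.1%). These 3 lists made up 54 of the 11316 tested genes (0.477%), and held 22 of the 77 genes that DESeq2 called lower (28.6%). Their members were chosen with earlier results of these data known, so these shares describe the lists and test nothing. Among the 77 were also the pancreas genes Cel, Pnliprp1, Try5, Gp2 and Pnliprp2, each highest in LD-FA replicate 1, where Cel read 141 FPKM against at most 11.6 in the other 7 libraries. The genes that DESeq2 called higher included the skeletal muscle gene Tnnt3. It read 100.3 FPKM in LL-FA replicate 1, at most 0.135 FPKM in the other constant light libraries, and 45.8 FPKM in LD-FA replicate 1. The interaction called 0 genes (edgeR smallest adjusted p = 0.843), with 552 at an unadjusted p under 0.05 (4.88%) and 33 called by DESeq2.

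**Figure D5:**
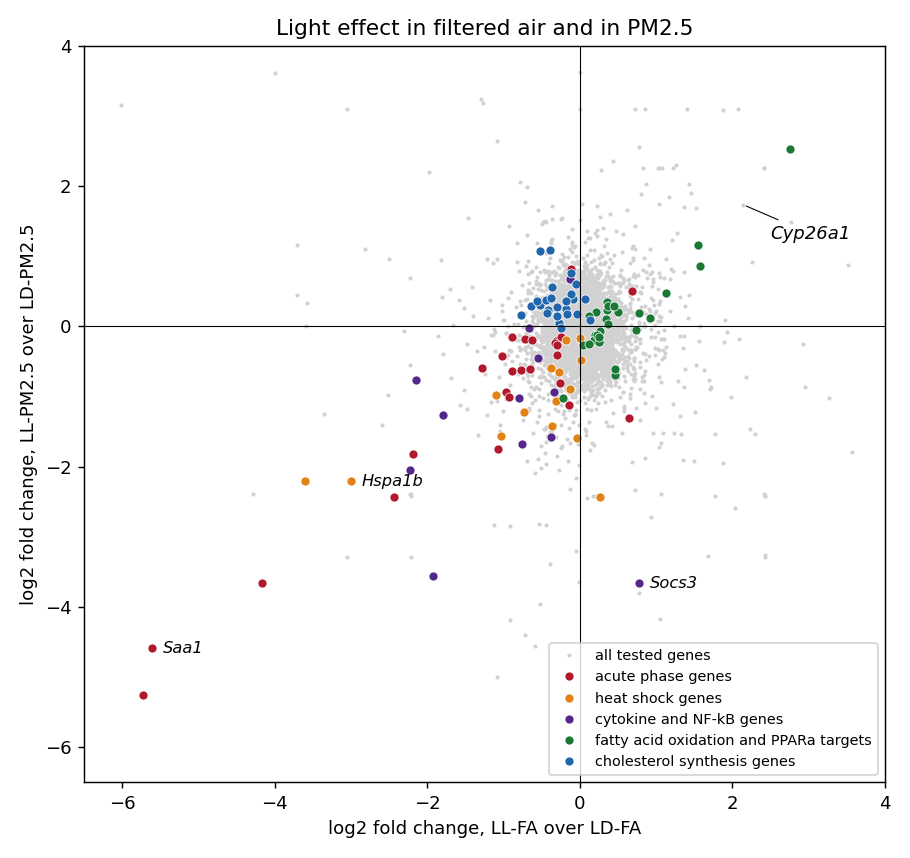
Each point is a tested gene, with its log2 fold change of LL-FA over LD-FA on the x axis and of LL-PM2.5 over LD-PM2.5 on the y axis, in colour for 5 gene lists, and 31 genes lie outside the axes. Acute phase and heat shock genes lie mostly in the lower left, Cyp26a1 in the upper right at 2.14 and 1.74, and cholesterol synthesis genes to the upper left.

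Lists whose values turned with air show the contrast. Of 25 cholesterol synthesis genes, 23 were negative in filtered air, with a median of -0.30, and 1 was negative in PM2.5, with a median of 0.31. Averaged over air their median was 0.012 and 0 of 25 were under 0.05. Erythroid markers, transcripts of red cells and their precursors, had a median of -0.72 in filtered air and 1.77 in PM2.5. Of 5 tested, 4 were negative in filtered air and 1 was positive in both airs. The marker Alas2 read 65.9, 81.3, 70.8 and 71.7 FPKM in constant light and 70.6, 74.9, 69.3 and 69.7 FPKM in light/dark. The globin Hbb-bs read 38.6 and 49.4 FPKM in LL-FA against 102 and 45.2 in LD-FA, so its filtered-air difference leaned on LD-FA replicate 1. Hba-a1, an alpha globin, read 9.76 and 10.5 FPKM in LL-FA, with 19.6 and 24.9 in LL-PM2.5, against 23.6 and 12.7 in LD-FA, with 4.81 and 5.92 in LD-PM2.5. Its interaction was 2.85 ± 0.43 (SE, edgeR adjusted p = 0.843). Alas1, the first enzyme of heme synthesis, read 70.4 and 164 FPKM in LL-FA, with 62.0 and 30.2 in LL-PM2.5, against 42.5 and 49.9 in LD-FA, with 160.0 and 191 in LD-PM2.5. The log2 fold change of Alas1 was 1.36 in filtered air and -1.90 in PM2.5.

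Other programmes had medians between -0.20 and 0.17. Nuclear genes of oxidative phosphorylation were positive in 28 of 28 cases, but by a median of only 0.062, with 0 under 0.05. In all genes 51.3% were positive. NRF2 antioxidant genes had a median of 0.094, and 0.015 without LD-PM2.5 replicate 2. Of the 13 tested, 2 were under 0.05 on the higher side (15.4%, against 2.18% of all genes), the glutathione transferase Gsta1 at 0.91 ± 0.29 and the quinone reductase Nqo1 at 0.49 ± 0.17, and 1 on the lower (7.69%, against 3.48%), the oxidative stress gene Osgin1 at -0.87 ± 0.24. Genes of bile acids and sterol export had a median of -0.042, xenobiotic cytochromes and AHR targets -0.034, heme genes 0.049, growth hormone and STAT5 genes -0.20 and cell cycle genes 0.051. Rhythmic liver outputs had a median of -0.19, but leaving out LD-PM2.5 replicate 2 made it 0.16 and leaving out LD-PM2.5 replicate 1 made it -0.33. The medians were -0.17 for glucose and insulin response genes and 0.17 for fatty acid and triglyceride synthesis genes. Histone and DNA modifiers, which open and close chromatin, had 0 of 21 under 0.05 and a median of -0.020.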

How the data were processed

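Reads were aligned with STAR and summarised with Cufflinks and Cuffdiff on mm10, per the submitters' processing notes, and the sources used here give no versions, options or annotation release. The deposited table gives, per the file headers, expected counts of fragments and FPKM for each gene and library from the authors. The fragments were rounded to whole numbers, from which 97.4% of nonzero values differed by no more than 0.01. A status of HIDATA (172 entries) or FAIL (21) removed 47 genes, which held 1.07% of the fragments as listed. Among them were Alb, Apoe, Trf, Serpina1a, Serpina3k, Hnf4a, Cfb and several Mup genes, so none of these was tested.

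Genes with at least 1 FPKM in 2 libraries were tested with edgeR 4.0.16 (R 4.3.3, TMM, quasi-likelihood, 4 group means, two-sided, Benjamini-Hochberg over all tested genes, threshold 0.05). The standard error (SE) is the absolute log2 fold change over the square root of F. Its median was 0.13 over all tested genes, at 22214720 to 31819109 fragments per library. limma 3.58.1 and DESeq2 1.42.0 were alternatives, beside other filters, scalings, models and libraries left out. The fit was also run on simulated counts. These held no air effect and no set of other-tissue transcripts rising together in a library, so they do not vouch for the test on these data. Positions come from GENCODE vM21. Python 3.11.15 read promoter windows, and motifs were searched on both strands.

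Named genes were, per direction, the 12 of smallest p with the same sign in both airs and at least 5 FPKM in a light regime, clock genes, and 4 genes per list. Hp, Serpina3n, Itih4, Orm1, Hamp, Stat3, Hsph1, Hsp90aa1, Hspb1, Hspd1, Hspe1, Socs3, Cyp4a10, Angptl4, Cpt1a, Nfkbiz, Parp14, Cel, Pnliprp1, Try5, Gp2 and Pnliprp2 were named after their values were seen, and some genes are not reported here. Members and the 36 lists were chosen with earlier results of these data known. Within groups, libraries differed by a chi-square of 41.3 to 88.0 per degree of freedom, more than sampling noise.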

Additional observations from a re-analysis of the deposited data

Results flagged for a closer look

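The values below lay apart from the other 3 libraries of the same light regime, by a gap over range above the 95% critical value of Dixon's test for 4 values. Of 310 groups checked 33 did so. The critical value assumes draws from the same normal distribution. Each group mixed filtered air and PM2.5, and many flags fell on the same libraries, so this count has no chance rate beside it.

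Clock and rhythmic genes stood apart in LD-PM2.5 replicate 2. It read 2.29 FPKM for Per3, 1.86 for Ciart, 9.33 for Per2, 5.99 for Per1, 16.4 for Usp2, 10.3 for Cry2, 10.6 for Hlf and 183 for Upp2, each above the other light/dark libraries. Ddit3, an integrated stress factor, was at 9.81 FPKM in the same library.

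Among the stress genes of the report, Il1b was at 4.36 FPKM in LD-FA replicate 1, and LL-PM2.5 replicate 2 was the highest constant light library for Hspa1a at 0.358 FPKM and for the chaperone Hspa5 of the endoplasmic reticulum at 552 FPKM. LL-PM2.5 replicate 1 was highest in constant light for the NRF2 targets Nqo1 at 6.79 FPKM and Gstm1 at 1036 FPKM. Rarb was lowest in constant light at 1.11 FPKM in LL-PM2.5 replicate 2. Stat5b was lowest in light/dark at 10.9 FPKM in LD-PM2.5 replicate 1.

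Pancreas transcripts stood apart in LL-PM2.5 replicate 2, with 71.2 FPKM of Cela2a, 36.1 of Prss2 and 9.15 of Cpb1, and in LD-FA replicate 1, with 552 FPKM of Cela1, 761 of Cela2a, 458 of Prss2 and 126 of Cpb1. Muscle transcripts stood apart in LL-FA replicate 1, with 121 FPKM of Mb, 13.1 of Myh1, 100.3 of Tnnt3 and 41.8 of Atp2a1, and in LD-FA replicate 1, with 51.4 FPKM of Mb, 4.37 of Myh1, 45.8 of Tnnt3 and 16.6 of Atp2a1. Fat transcripts stood apart in LL-FA replicate 1, with 56.9 FPKM of Fabp4 and 25.6 of Cfd.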

How the results depend on the processing

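The 0 calls for light became 3 without an air term (Cyp26a1 higher, Dnajb1 and Prg4 lower), 291 with no FPKM filter (80 higher and 211 lower, with prior degrees of freedom of 76.3 in place of 3.46), 92 with DESeq2, 1 with limma on log2(FPKM + 1) (Rny3), and 1 (Hspa1b) without LD-FA replicate 1 and LL-PM2.5 replicate 2, a fit chosen after seeing the data. Leaving out each library in turn gave 0 to 1 calls, Serpina12 without LL-PM2.5 replicate 1 and Hspa1b without LL-PM2.5 replicate 2. The interaction's 0 became 239 with no filter, 33 with DESeq2 and 2 with limma on log2(FPKM + 1). The cause was not tested. The difference of replicate 1 from replicate 2 was taken within each group. Across genes these differences correlated between groups at -0.585 to 0.334, so the numbers were not taken as pairs. A replicate block gave 0 calls (edgeR smallest adjusted p = 0.0778).

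Of the list medians, within filtered air alone they were 0.26 for rhythmic outputs, -0.13 for opposite phase clock genes, -0.71 for cytokine, -0.29 for heat shock and -0.018 for amino acid genes, and for markers -11.95 (pancreas), 1.39 (adipocyte), -0.72 (erythroid), -1.37 (B cell), -0.060 (neutrophil) and -0.42 (cholangiocyte). Within PM2.5 they were -1.21 for opposite phase clock genes, and 1.47, 1.77, -0.049 and -1.59 for pancreas, erythroid, B cell and neutrophil markers. limma on log2(FPKM + 1) gave -0.49 for opposite phase clock and -0.68 for cytokine genes. With 1 library left in each group they were -0.42 for acute phase and -1.11 for heat shock genes, and -3.63, -0.31 and -0.41 for muscle, B cell and cholangiocyte markers. Without replicate 1 of LD-FA and of LL-FA they were 0.015 for NRF2 genes, and 0.32, 0.90 and -0.32 for pancreas, erythroid and B cell markers. A minimum of 5 FPKM gave 0.12 for histone modifiers, and library totals alone -0.056 for endothelium.

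Leaving out each library in turn, medians ran between -0.79 and -0.27 for opposite phase clock, -0.98 and -0.47 for heat shock, 0.015 and 0.14 for NRF2, -0.33 and 0.16 for rhythmic output, -0.28 and -0.018 for glucose response, -0.13 and 0.047 for bile acid, -0.20 and 0.16 for xenobiotic, 0.0082 and 0.14 for oxidative phosphorylation, -0.18 and 0.45 for cholesterol, and 0.025 and 0.41 for fatty acid synthesis genes. For markers they ran between -10.52 and 0.49 (pancreas), -4.06 and 2.22 (muscle), 0.27 and 0.91 (erythroid), and -0.11 and -0.047 (endothelium). Acute phase medians ran between -0.69 and -0.50, and cytokine medians between -1.37 and -0.87. A total of 819 values of list medians, and the fold changes of the 54 named genes, kept their direction or moved by less than the spread, with these exceptions in sign: with 1 library left in each group Hamp was -0.037 and Alas1 0.064, within filtered air Hspb1 was 0.27, Socs3 0.78, Hba-a1 -0.78 and Alas1 1.36, and leaving out each library Npas2 ran between -1.94 and 0.056, the extremes being without replicate 1 of LL-PM2.5 and of LD-PM2.5. Cyp26b1 ran between -0.11 (without LL-PM2.5 replicate 1) and 2.93. Of these genes' values 91 were past the adjusted threshold, 47 of them with no filter and 39 with DESeq2. With 2 libraries per group the median SE within an air was 0.19, which limits what a single gene can show.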

Other observations

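MHC class II genes, which present antigen, were positive in 6 of 6 tested cases with a median log2 fold change of 0.30, against 0.0047 for all tested genes. It was 0.13 in filtered air, 0.48 in PM2.5 and 0.091 without LL-PM2.5 replicate 2. Their summed level was 140.1 to 289 FPKM in constant light and 139 to 183 FPKM in light/dark. Of 9 T and NK cell markers 1 was tested, at 0.39. Sinusoidal endothelial markers summed to 121 to 134 FPKM in constant light and 131 to 138 FPKM in light/dark, and stellate cell and fibrosis markers to 187 to 216 FPKM in constant light and 163 to 231 FPKM in light/dark. None of these had a member past the edgeR test (adjusted p).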
